A study of Homo sapiens with 12 samples.

Results

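PTGS2 and the genes around it that make, break down and receive prostaglandin E2 form a set of 6 among the 19901 genes of the count table: PTGS2, PTGES, PTGES2, PTGES3, HPGD and PTGER4. PTGS2 was chosen on measured values, its rise with serum and its lower level in the serum-treated dTAG group, so those differences are given below as a description with no test. The other 5 were selected by their role in the pathway. To enter the fit a gene needed 10 counts or more in 6 or more libraries of the 12. This left 13093 genes, 5 of the 6 members among them, and HPGD did not pass. PTGS2 reached 10 counts in 10 of the 12 libraries, and its 6 serum-treated libraries alone would have carried it past that limit.

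RNA-Seq was performed in HCT116, a human colon carcinoma cell line, in which a degradable tag (dTAG) was placed on KAP1, a transcriptional cofactor encoded by TRIM28. All 12 libraries came from the same tagged line, KAP1_dTAG_CloneD5, which is 1 clone, and all cells had been kept without serum for 48 h. Cells received DMSO (vehicle) or the dTAG ligand, which triggers degradation of tagged KAP1, for 8 h and were then collected either without serum or after 30 min of serum, giving DMSO-S0 and dTAG-S0 (no serum) and DMSO-S30 and dTAG-S30 (serum), with 3 libraries in each group. The libraries asked how far the serum response depends on KAP1, with serum against no serum compared within each treatment and dTAG against DMSO compared within each serum state.

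Total counts per library ranged from 20537682 to 26278707, of which the ERCC spike-in RNAs took 7.97% to 9.37%, and replicate pairs had Spearman correlations across genes of 0.996 to 0.998. TRIM28 transcripts averaged 96.9 CPM in DMSO-S0, 115 in DMSO-S30, 92.6 in dTAG-S0 and 112 in dTAG-S30, with dTAG effects of -0.06 (log2, edgeR adjusted p = 0.781) and -0.05 (adjusted p = 0.863). The tag acts on the protein, so this transcript is no measure of KAP1 loss. Of 10 colon carcinoma epithelium markers, 8 had at least 10 counts in every library (VIL1 and LGALS4 did not). Of 6 fibroblast markers only COL1A1 did, COL1A2 never exceeded 1 count and LUM was at 0. Of 7 leukocyte markers only CD68 did (59 to 106 counts), and of 5 endothelium markers only VWF (24 to 55 counts). Every endothelium marker reached 10 counts in some library.

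In background terms, phospholipases release arachidonic acid from membranes, a cyclooxygenase (PTGS1 or the inducible PTGS2, also called COX-2) turns it into prostaglandin H2, and terminal synthases make prostaglandin E2 from it. The prostaglandin leaves the cell, acts through the EP receptors (EP4, encoded by PTGER4, raises cAMP), and is inactivated by the dehydrogenase encoded by HPGD. In the colon, PTGS2 is the form linked to inflammation and to adenoma growth, and it is a classical immediate early gene, one that growth factors switch on without new protein synthesis.

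The upstream sequences of the 2 members that rose with serum are shown because they differ in base composition and in the motif matches found. They are the 250 bases before the RefSeq start (hg38), PTGS2 on the minus strand at chr1:186680424-186680673 and PTGER4 on the plus strand at chr5:40679665-40679914, with motif matches in capitals. PTGER4 as counted starts at 40679498, before its RefSeq start, so its window lies inside the counted gene.
PTGS2: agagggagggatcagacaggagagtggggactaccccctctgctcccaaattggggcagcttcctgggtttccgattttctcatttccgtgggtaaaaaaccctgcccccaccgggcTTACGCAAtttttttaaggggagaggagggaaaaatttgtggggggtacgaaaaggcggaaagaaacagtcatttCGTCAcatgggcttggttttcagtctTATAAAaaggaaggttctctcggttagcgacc
PTGER4: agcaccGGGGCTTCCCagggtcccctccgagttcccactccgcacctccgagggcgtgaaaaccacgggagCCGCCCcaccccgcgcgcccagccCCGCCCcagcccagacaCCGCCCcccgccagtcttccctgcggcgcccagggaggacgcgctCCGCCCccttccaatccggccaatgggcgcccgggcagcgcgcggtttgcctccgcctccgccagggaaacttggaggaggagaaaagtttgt
The PTGS2 window had a GC content of 50.4% and held a TATA box (TATAAA) at -32 to -27 from the start, a cAMP response element half-site (CGTCA) at -58 to -54, and a C/EBP site (TTGCNNAA, here on the opposite strand) at -133 to -126. The PTGER4 window had a GC content of 72.8% and held 4 GC boxes (GGGCGG, all on the opposite strand) and an NF-kappaB site at -244 to -235. Motifs were searched on both strands and none of these matches overlapped another. Among 35116 RefSeq promoter windows of the same length, with a median GC content of 58%, 10.7% held TATAAA, 21.2% CGTCA, 9.05% the C/EBP letters, 42.6% the GC box and 5.21% the NF-kappaB site. Neither window held an AP-1 site (TGANTCA), an E-box (CACGTG) or a CArG box, which were present in 6.57%, 6.34% and 1.16% of windows. Windows of PTGES3 and HPGD also held CGTCA, and windows of PTGES, PTGES2, PTGES3 and HPGD held GC boxes. No serum rise was called for any of these members. A link between the matches and the serum rise was not tested. These matches are letters in a window and were not measured as binding. The letters used, those for NF-kappaB and the E-box among them, do not cover every variant of a site. A window without a match is therefore not shown to lack the element.

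PTGS2 (ENSG00000073756.11, hg38 chromosome 1, 186671791 to 186680427, minus strand) was almost silent in starved cells. It had 8, 14 and 12 counts in the 3 DMSO-S0 libraries, or 0.424, 0.642 and 0.589 CPM (counts-per-million values after upper-quartile scaling). After 30 min of serum the DMSO-S30 libraries held 197, 219 and 206 counts, or 9.67, 9.65 and 9.95 CPM. The DMSO-S30 values did not overlap those of DMSO-S0 and were among the least variable of the gene, with a coefficient of variation of 1.71%.

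In cells treated with dTAG the starved level of PTGS2 was 0.423, 0.736 and 0.50 CPM from 9, 17 and 12 counts. With serum the dTAG-S30 libraries had 114, 128 and 138 counts, or 5.12, 5.72 and 6.25 CPM. All 3 dTAG-S30 libraries thus lay above every starved library and below every DMSO-S30 library.

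**Figure D1:**
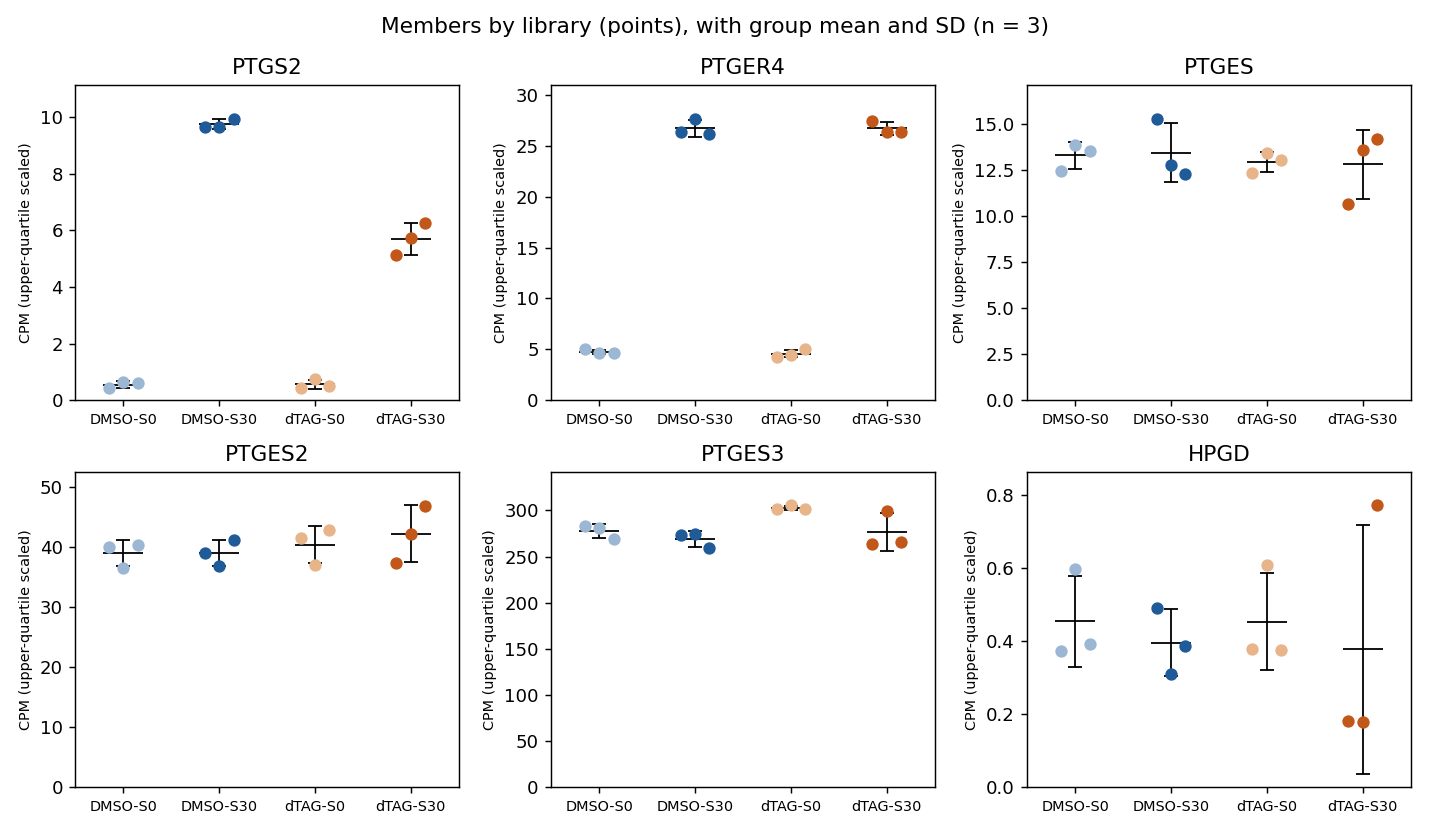
Level of each of the 6 genes (y axis, CPM after upper-quartile scaling, each panel with its own scale from 0) in the 4 groups (x axis); points are libraries in the order of replicates 1 to 3, and black bars are the mean and SD (n = 3). PTGS2 and PTGER4 were high in both serum groups, PTGS2 was lower in dTAG-S30 (5.12 to 6.25 CPM) than in DMSO-S30 (9.65 to 9.95 CPM), and PTGES, PTGES2, PTGES3 and HPGD had overlapping serum and no-serum libraries within DMSO.

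The fitted rise of PTGS2 with serum was 4.15 on the log2 scale (SE 0.21, 95% interval 3.71 to 4.58), or 17.7-fold, in DMSO-treated cells, and it was rank 27 of 13093 genes by size of the rise. In dTAG-treated cells it was 3.33 (SE 0.22, 95% interval 2.89 to 3.77), or 10.1-fold, and rank 31. With serum, PTGS2 decreased by 42.8% in dTAG-S30 against DMSO-S30 (log2 fold change -0.81, SE 0.15, 95% interval -1.11 to -0.51), rank 50 among the decreases. The interaction of serum and dTAG, the difference between the 2 serum responses, was -0.82 (SE 0.38, 95% interval -1.60 to -0.04), an estimate that rests on 8 to 17 counts in each starved library. As the gene was chosen on these differences, no p is attached to them. The intervals were not corrected for that choice and are not to be read as tests. PTGS2 was not among the genes called for the interaction.

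Serum raised 101 genes 4-fold or more under DMSO (edgeR adjusted p under 0.05). Of these, 77 had a lower fitted level in dTAG-S30 than in DMSO-S30, and 15 of them passed the test, all 15 lower. Over all 13093 genes, 164 (1.25%) were called in that comparison, 84 of them lower. The median difference of the 101 was -0.18 (log2), beside -0.0007 over all genes tested. PTGS2 stood at rank 1 from the lowest in that group and PTGER4 at rank 77. These ranks describe the fit that also brought PTGS2 forward, and both contrasts share the DMSO-S30 libraries. A choice by a high DMSO-S30 level favours genes that are lower in dTAG-S30, so the counts, median and ranks are a description only.

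Without serum, the comparison that did not enter the choice of PTGS2 apart from its shared DMSO-S0 libraries, dTAG made no difference to PTGS2 that could be detected. The fitted change was 0.01 (log2, SE 0.35, 95% interval -0.70 to 0.72, edgeR quasi-likelihood test, adjusted p = 0.994) and its direction turned under several settings. At 8 to 17 counts per library, that interval reaches from a clear fall to a clear rise.

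Scaled to the ERCC total instead of the upper quartile, PTGS2 averaged 5.61 ± 1.17 CPM (per spike-in counts) in DMSO-S0, 104 ± 5.83 in DMSO-S30, 5.77 ± 1.84 in dTAG-S0 and 60.6 ± 4.91 in dTAG-S30 (SD, n = 3). The dTAG-S30 values, 56.9 to 66.2, stayed below the DMSO-S30 values, 99.8 to 111. In bulk RNA a lower level in each cell and fewer cells responding cannot be told apart.

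PTGER4 (ENSG00000171522.5, chromosome 5, 40679498 to 40693735, plus strand), the EP4 receptor, was the other member that rose. It had 94, 101 and 94 counts in DMSO-S0 (4.98, 4.63 and 4.61 CPM) and 537, 628 and 541 in DMSO-S30 (26.4, 27.7 and 26.1 CPM). The serum groups did not overlap the starved groups.

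In the dTAG-treated groups PTGER4 had 91, 103 and 120 counts without serum (4.28, 4.46 and 5.0 CPM) and 611, 590 and 581 with serum (27.4, 26.4 and 26.3 CPM). The ranges of dTAG-S30 and DMSO-S30 overlapped. The rise with serum was 2.51 (log2, SE 0.10), or 5.69-fold, in DMSO-treated cells (edgeR adjusted p = 3.08e-17) and 2.54 (SE 0.10), or 5.80-fold, in dTAG-treated cells (edgeR adjusted p = 9.53e-18). The dTAG difference with serum was -0.01 (SE 0.08, 95% interval -0.18 to 0.16, edgeR adjusted p = 0.980), and the interaction was 0.03 (SE 0.15, 95% interval -0.28 to 0.34).

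PTGER4 lies wholly inside the span of TTC33 on the opposite strand, and the counting is not stated to use strand, so reads of the 2 genes may not be fully separated. TTC33, examined after its overlap was seen, had 952 to 1347 counts per library and moved the other way, with serum effects of -0.20 (log2, edgeR adjusted p = 0.0457) and -0.28 (edgeR adjusted p = 0.00462).

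Beside these rises, COL1A1 of the fibroblast markers also rose with serum, from 13.5 to 15.7 CPM in DMSO-S0 to 78.8 to 85.5 CPM in DMSO-S30 (2.48 on the log2 scale, edgeR adjusted p = 1.33e-18). The summed level of the 6 fibroblast markers over the 12 libraries ran from 12.4 to 85.9 CPM and was almost all COL1A1. Of the other 5 markers, LUM was at 0, COL1A2 had at most 1 count in a library, DCN 2, COL3A1 7 and PDGFRB 15. Their part in the serum results was not tested.

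Since PTGS2 and PTGER4 both rose, the count of 1 relative to the other within a library is free of any scaling. PTGS2 had 11.7 ± 2.83 counts per 100 PTGER4 counts in DMSO-S0 and 36.5 ± 1.61 in DMSO-S30. It had 12.1 ± 3.79 in dTAG-S0 and 21.4 ± 2.56 in dTAG-S30 (SD, n = 3). The 3 dTAG-S30 libraries had 18.7, 21.7 and 23.8, and the 3 DMSO-S30 libraries 36.7, 34.9 and 38.1, with no overlap. This difference follows from the choice of PTGS2 and has no test.

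**Figure D2:**
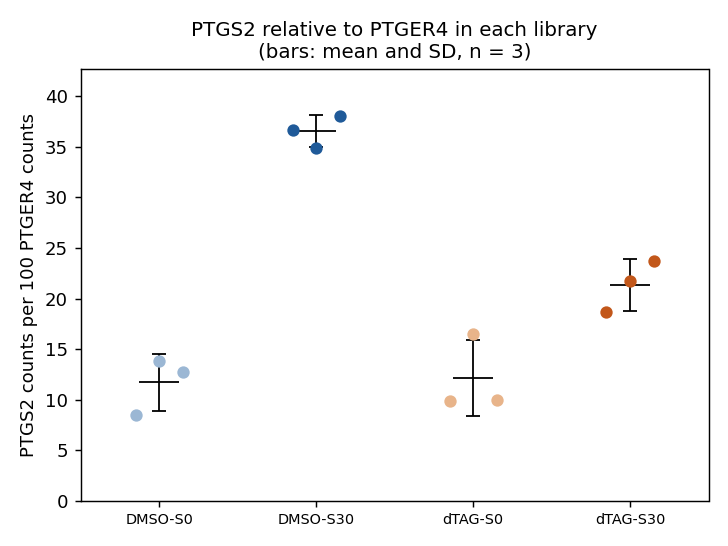
PTGS2 counts per 100 PTGER4 counts (y axis, from 0) in each library of the 4 groups (x axis); points are replicates 1 to 3 and black bars the mean and SD (n = 3). The 2 starved groups overlapped at 8.51 to 16.5, dTAG-S30 stood at 18.7 to 23.8 and DMSO-S30 at 34.9 to 38.1.

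The terminal synthases stayed close to their starved level. PTGES (ENSG00000148344.10, chromosome 9, 129738331 to 129753047, minus strand), the microsomal prostaglandin E synthase that is often induced together with PTGS2, averaged 13.3 ± 0.733, 13.4 ± 1.61, 12.9 ± 0.559 and 12.8 ± 1.88 CPM (SD, n = 3) in DMSO-S0, in DMSO-S30, in dTAG-S0 and in dTAG-S30. Its libraries ranged from 10.6 to 15.3 CPM (235 to 313 counts), and both extremes were serum-treated libraries.

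The serum effect on PTGES was 0.02 (log2, SE 0.12, 95% interval -0.22 to 0.25, edgeR adjusted p = 0.942) in DMSO-treated cells and -0.02 (SE 0.11, 95% interval -0.25 to 0.21, edgeR adjusted p = 0.930) in dTAG-treated cells. Its dTAG effects were -0.04 in starved cells (edgeR adjusted p = 0.932) and -0.07 after serum (edgeR adjusted p = 0.891). The intervals for serum reach 0.25 in size, against 2.51 for PTGER4.

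PTGES2 (ENSG00000148334.14, chromosome 9, 128120693 to 128128462, minus strand), a second membrane-associated synthase, averaged 39.0 ± 2.15, 39.0 ± 2.18, 40.4 ± 3.07 and 42.2 ± 4.76 CPM in the same order of groups. Its libraries ran from 36.5 to 47.0 CPM and the groups overlapped. Its serum effects were 0.03 (log2, SE 0.08, edgeR adjusted p = 0.806) and 0.04 (SE 0.08, edgeR adjusted p = 0.722), and its dTAG effects 0.07 in starved cells (edgeR adjusted p = 0.770) and 0.08 after serum (edgeR adjusted p = 0.788).

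PTGES3 (ENSG00000110958.15, chromosome 12, 56663341 to 56688408, minus strand), the cytosolic synthase that is better known as p23, a co-chaperone of HSP90, was by far the most abundant member. It had 283, 281 and 269 CPM in DMSO-S0 and 302, 305 and 302 CPM in dTAG-S0. The dTAG effect without serum was 0.13 (log2, SE 0.06, unadjusted p = 0.0284, edgeR adjusted p = 0.331) and did not pass the test.

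With serum PTGES3 had 274, 274 and 260 CPM in DMSO-S30 and 263, 300 and 266 CPM in dTAG-S30, which overlapped (dTAG effect 0.03, edgeR adjusted p = 0.925). Its serum effect was -0.03 (SE 0.06, edgeR adjusted p = 0.731) in DMSO-treated cells, a sign that turned under TMM, spike-in and DESeq2 scaling, and -0.14 (SE 0.06, unadjusted p = 0.0221, edgeR adjusted p = 0.0753) in dTAG-treated cells. The latter passed the test without dTAG-S30 replicate 2, whose PTGES3 level was the highest of that group (-0.20, edgeR adjusted p = 0.0173), and in a fit of only the 6 dTAG libraries (-0.14, edgeR adjusted p = 0.0475).

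HPGD (ENSG00000164120.13, chromosome 4, 174490177 to 174523154, minus strand), which inactivates prostaglandin E2, was barely present. Its 12 libraries held 4 to 17 counts each, and 4 of them reached 10. The group totals were 28 counts in DMSO-S0 (exact 95% Poisson interval 18.6 to 40.5), 25 in DMSO-S30 (16.2 to 36.9), 31 in dTAG-S0 (21.1 to 44) and 25 in dTAG-S30 (16.2 to 36.9). All 4 intervals overlapped, and no difference was detectable at this depth. The dTAG-S30 libraries alone ran from 4 and 4 to 17 counts.

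The call rate over all genes sets the scale for these counts. Serum changed 27.3% of the 13093 genes in DMSO-treated cells (edgeR adjusted p under 0.05) and 25.5% in dTAG-treated cells, and in each 1 of the 4 tested members other than PTGS2, PTGER4, was called. Of the genes called, 34.4% and 36.4% were higher with serum, a split that became 61.4% and 61.3% under TMM scaling and 66.5% and 62.5% with spike-in library sizes. PTGS2 and PTGER4 rose under each of these scalings.

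The dTAG comparison called 1.47% of all genes in starved cells and 1.25% in cells given serum. The interaction called 0.0458%. Of the 4 members other than PTGS2, edgeR and DESeq2 each called 0 in these 3 comparisons. At an unadjusted p under 0.05 edgeR gave 1 without serum (PTGES3), 0 with serum and 0 for the interaction. Over all 13093 genes it gave 1598, 1380 and 439 in the same order.

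**Figure D3:**
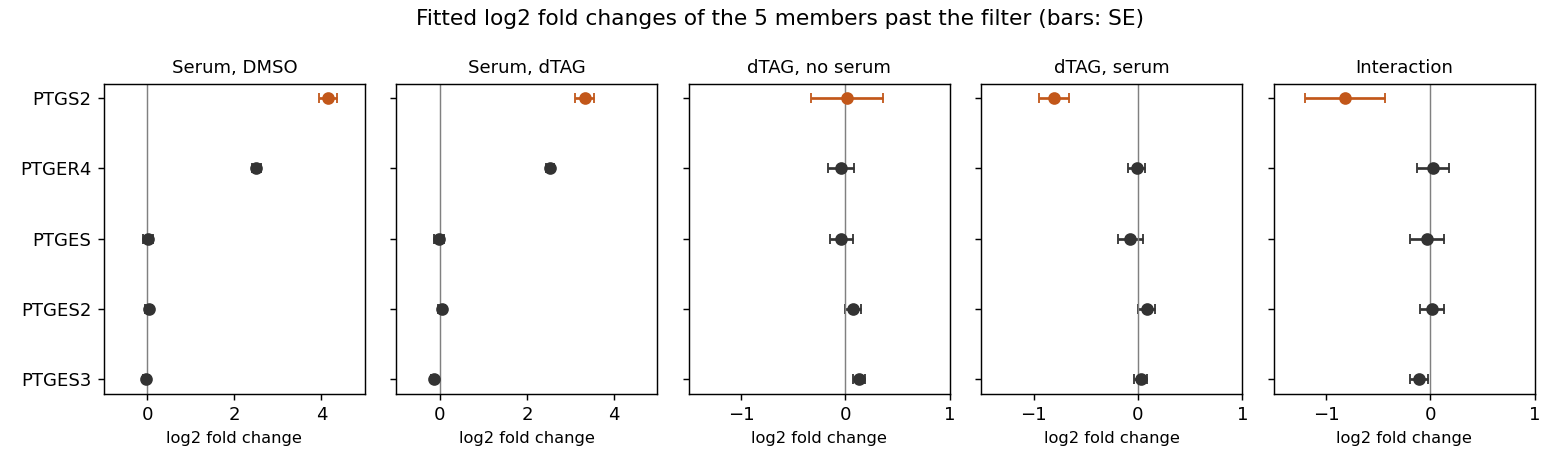
Fitted log2 fold changes (x axis, with SE bars) of the 5 genes that entered the fit (y axis) in the 5 comparisons (panels; the serum panels have a wider axis than the other 3). PTGS2 (orange) and PTGER4 rose with serum by 4.15 and 2.51 in DMSO-treated cells, and in the dTAG comparison with serum PTGS2 lay at -0.81, the difference by which it had been chosen.

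Levels between genes were compared per kilobase. Per kilobase of gene span, the order in DMSO-S0 was PTGES3 (11.1), PTGES2 (5.02), PTGES (0.902), PTGER4 (0.333), PTGS2 (0.0639) and HPGD (0.0137 CPM per kb). In DMSO-S30 it was PTGES3 (10.7), PTGES2 (5.02), PTGER4 (1.88), PTGS2 (1.13), PTGES (0.912) and HPGD (0.0120). PTGER4 and PTGS2 had thus moved past PTGES in DMSO-S30, and the ranges of the mean ± 1 SD did not overlap between neighbours in either order. These SDs are between libraries, and that of PTGS2 in DMSO-S30 understates its counting error.

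In dTAG-S30 PTGS2 (0.660 ± 0.0659 CPM per kb of span) stood below PTGES (0.869 ± 0.128) and PTGER4 kept its place (1.88 ± 0.0435). The counts cover whole genes, introns included, and exons make up 63.5% of the PTGS2 span but 12.8% of that of PTGES and 24.9% of that of PTGER4. Per kilobase of exon the order of these members in DMSO-S30 became PTGER4 (7.54 ± 0.235), PTGES (7.10 ± 0.854) and PTGS2 (1.78 ± 0.0304), the former pair within their spread. PTGES2, in second place by span, stood at 6.41 ± 0.358 per kilobase of exon, below the means of PTGER4 and PTGES though within the spread of PTGES. The places of PTGS2 against PTGES and of PTGES2 therefore depend on the length used, and PTGS2 remained under PTGER4 by both.

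Of the other genes of the pathway, 113 in 8 lists passed the filter. In DMSO-treated cells serum raised 22 and lowered 11 of the 113, beside 27.3% of all genes called. Under TMM scaling it raised 26 and lowered 7, and with spike-in library sizes it raised 20 and lowered 3, so the lowered count depends on the scaling. Over all genes these scalings called 2873 and 1766, against 3573 with upper-quartile scaling. In dTAG-treated cells serum raised 17 and lowered 11, beside 25.5% of all genes (3342). There it raised 23 and lowered 5 under TMM scaling, which called 2688 genes in all. With spike-in library sizes it raised 17 and lowered 2, with 1646 genes called in all. Each called gene named below kept its direction under TMM, spike-in and DESeq2 scaling in the comparison where it was called.

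Upstream of PTGS2, 12 genes of arachidonate release and the other cyclooxygenase were tested. Serum raised 2 and lowered 1 of the 12 in DMSO-treated cells, beside 27.3% of all genes called. PNPLA8, a calcium-independent phospholipase, rose by 0.55 (log2, SE 0.07, edgeR adjusted p = 1.39e-06), and DAGLB, a diacylglycerol lipase, by 0.46 (SE 0.08, edgeR adjusted p = 5.22e-05). The lysosomal phospholipase PLA2G15 fell by 0.45 (SE 0.13, edgeR adjusted p = 0.0139), a call lost with spike-in library sizes and by DESeq2. PTGS1, the constitutive cyclooxygenase, averaged 1.47 ± 0.486 CPM in DMSO-S0, 1.5 ± 0.246 in DMSO-S30, 1.54 ± 0.472 in dTAG-S0 and 1.29 ± 0.147 in dTAG-S30 (SD, n = 3), with no call for serum (0.01, SE 0.30, edgeR adjusted p = 0.987).

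Of 4 tested synthases of other prostanoids, serum lowered 1 in DMSO-treated cells, beside 27.3% of all genes called. This was the thromboxane synthase TBXAS1 (-0.76, SE 0.18, edgeR adjusted p = 0.00194). Of 7 tested genes of transport and breakdown serum raised 1 and lowered 2 in DMSO-treated cells, beside the same 27.3%. CBR3, a carbonyl reductase, went from 1.53 ± 0.583 CPM in DMSO-S0 to 3.07 ± 0.183 in DMSO-S30 (0.99, SE 0.24, edgeR adjusted p = 0.0027). It stood at 2.82 ± 0.221 CPM in dTAG-S0, a dTAG effect of 0.86 (SE 0.23) that missed the threshold in edgeR (adjusted p = 0.0612) and passed it in DESeq2 (0.87, adjusted p = 0.0434). The prostaglandin reductases PTGR3 (-0.26, edgeR adjusted p = 0.00758) and PTGR1 (-0.21, edgeR adjusted p = 0.0273) fell slightly, calls that were lost under TMM scaling, spike-in library sizes and DESeq2.

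Among 10 further receptors of prostanoids 4 passed the filter, and 1 of them changed with serum. Of all genes, 27.3% were called for serum under DMSO and 25.5% under dTAG. PPARD, a nuclear receptor, rose by 0.39 (SE 0.07, edgeR adjusted p = 6.78e-05) in DMSO-treated cells and by 0.34 (SE 0.06, edgeR adjusted p = 0.000219) in dTAG-treated cells. The other EP receptors were close to absent, with at most 9 counts in a library for PTGER1, 19 for PTGER2 and 5 for PTGER3, against 628 for PTGER4. PTGER4 was therefore the EP receptor with the most counts in this line in every group.

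Downstream of EP4, 34 genes of cAMP signalling were tested, and serum raised 6 and lowered 4 of them in DMSO-treated cells, 10 of 34 beside 27.3% of all genes. With spike-in library sizes the counts were 5 raised and 0 lowered, with 11 of the 34 at an unadjusted p under 0.05. That scaling called 1766 genes in all, against 3573 with upper-quartile scaling. SIK1, a kinase gene switched on by CREB, went from 0.683 ± 0.411 to 12.3 ± 2.17 CPM (4.34, SE 0.24, edgeR adjusted p = 1.70e-14). CREM, which encodes a cAMP-responsive factor and its short repressor ICER, went from 18.9 ± 1.05 to 67.3 ± 8.14 CPM (1.82, SE 0.09, edgeR adjusted p = 1.61e-15). The phosphodiesterase PDE4B rose by 0.35 (SE 0.06, edgeR adjusted p = 7.12e-05).

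In dTAG-treated cells SIK1 rose by 3.6 and CREM by 1.49, and dTAG-S30 stood at 10.4 ± 0.657 and 56.3 ± 4.35 CPM. Their dTAG differences with serum, -0.37 (SE 0.15, edgeR adjusted p = 0.339) and -0.25 (SE 0.08, edgeR adjusted p = 0.158), did not pass the test. No gene of the 34 was called by edgeR or DESeq2 for dTAG in either serum state (0 by each tool, with 3 at an unadjusted p under 0.05 without serum and 6 with serum by each). Over all genes edgeR called 1.47% without serum and 1.25% with serum. There, 1598 and 1380 of the 13093 genes had an unadjusted p under 0.05.

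Of 21 transcription factors known to act on PTGS2, serum raised 7 and lowered 1 under DMSO, beside 27.3% of all genes called. Under dTAG it raised 6 and lowered 1, beside 25.5%. With spike-in library sizes the DMSO counts were 5 and 0, and that scaling called 1766 genes in all, against 3573 with upper-quartile scaling. CEBPD, a C/EBP factor, rose by 1.76 (SE 0.28, edgeR adjusted p = 2.00e-05) and 1.27 (SE 0.26, edgeR adjusted p = 0.000522), and CEBPB by 0.61 (SE 0.13, edgeR adjusted p = 0.000893) and 0.53 (SE 0.12, edgeR adjusted p = 0.00197). NFKB2, an NF-kappaB subunit, rose by 0.64 (SE 0.09, edgeR adjusted p = 1.60e-06) and 0.60 (SE 0.08, edgeR adjusted p = 1.51e-06).

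dTAG without serum raised 2 of the 21, beside 1.47% of all genes called. They were NFKB2 (0.32, edgeR adjusted p = 0.0480) and NFKB1 (0.30, edgeR adjusted p = 0.0142), calls that were lost with spike-in library sizes. With serum, edgeR called 0 of the 21 for dTAG (3 at an unadjusted p under 0.05) and DESeq2 called 1. Of all 13093 genes, edgeR called 1.25% there, with 1380 at an unadjusted p under 0.05, and DESeq2 called 197. The largest serum rise in this list under DMSO was 1.76. Factors that serum raised more strongly were not in it, and these counts do not cover them.

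**Figure D4:**
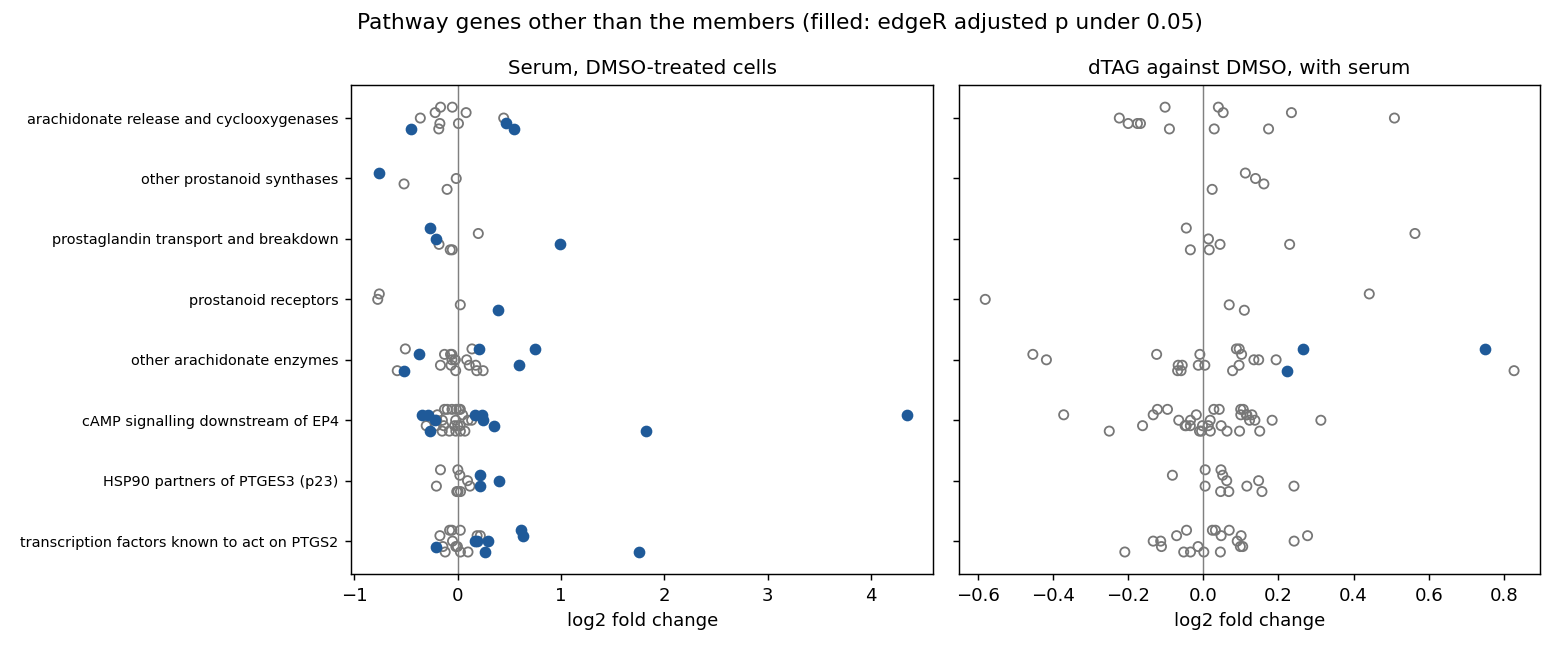
Log2 fold changes (x axis) of the 113 pathway genes other than the members, by list (y axis; points are spread vertically only to separate them), for serum in DMSO-treated cells and for dTAG with serum; filled points had an edgeR adjusted p under 0.05 and the panels have different x axes. SIK1 (4.34), CREM (1.82) and CEBPD (1.76) stood farthest to the right for serum, and for dTAG with serum the called genes were CYP4F2 (0.75), FADS1 (0.26) and ACSL4 (0.22).

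Among 22 tested enzymes that use arachidonate for other products or supply it, serum raised 3 and lowered 2 in DMSO-treated cells. Of all genes, 27.3% were called in that comparison. The lipoxygenase-family gene ALOXE3 rose by 0.75 (SE 0.21, edgeR adjusted p = 0.00959) and the fatty acid elongase ELOVL5 by 0.59 (SE 0.06, edgeR adjusted p = 4.75e-09), while MGST2, a microsomal glutathione transferase, fell by 0.52 (SE 0.09, edgeR adjusted p = 0.000127). dTAG raised 2 of the 22 in starved cells and 3 after serum, beside 1.47% and 1.25% of all genes called. It raised FADS1, a desaturase of arachidonate synthesis, by 0.33 in starved cells (edgeR adjusted p = 0.00143) and by 0.26 after serum (edgeR adjusted p = 0.0149). It raised ACSL4, which activates arachidonate, by 0.29 (edgeR adjusted p = 0.0035) and 0.22 (edgeR adjusted p = 0.0390). CYP4F2, a hydroxylase of arachidonate, was higher with dTAG in serum-treated cells (0.75, SE 0.19, edgeR adjusted p = 0.0400), against 0.20 in starved cells (edgeR adjusted p = 0.700), and that difference itself did not pass (0.55, SE 0.26, edgeR adjusted p = 1). The calls of CYP4F2, FADS1 and ACSL4 with serum were lost with spike-in library sizes, and that of CYP4F2 also by DESeq2 (adjusted p = 0.0607).

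Of 12 tested HSP90 chaperone partners of PTGES3, serum raised 3 in DMSO-treated cells, beside 27.3% of all genes called. They were DNAJB1 (0.40, SE 0.06, edgeR adjusted p = 1.89e-05), NR3C1, the glucocorticoid receptor (0.22, SE 0.08, edgeR adjusted p = 0.0432), and CDC37 (0.22, SE 0.06, edgeR adjusted p = 0.00634). dTAG without serum raised 1, the chaperone HSPA8 (0.29, SE 0.07, edgeR adjusted p = 0.0412), beside 1.47% of all genes called. The median of the 12 in that comparison was 0.11 beside -0.01 over all genes tested, and PTGES3 itself stood at 0.13, which did not pass the test. For the interaction, edgeR and DESeq2 each called 0 of the 113 pathway genes, with 5 at an unadjusted p under 0.05 by each. Over all 13093 genes edgeR called 6 for the interaction, with 439 at an unadjusted p under 0.05.

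By pattern over the 12 libraries, the 5 genes most like PTGS2 by Pearson correlation of log2 CPM were FBXO33 (r = 0.995), PMAIP1 (0.995), SELENOK (0.994), EGR2 (0.993) and VMP1 (0.992). The libraries fall into a serum and a no-serum set, and the points share library depth. EGR2, an immediate early zinc-finger factor, rose by 5.02 (log2) with serum under DMSO and by 4.48 under dTAG. PMAIP1, the pro-apoptotic factor NOXA, rose by 1.81 and 1.35, and FBXO33, an F-box protein, by 0.98 and 0.79.

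SELENOK, a selenoprotein of the endoplasmic reticulum, rose by 1.72 and 1.41, and VMP1, a factor of autophagosome formation, by 1.67 and 1.54. Their fitted dTAG differences with serum ran from -0.17 for FBXO33 to -0.39 for EGR2. The choice by likeness to PTGS2, whose profile holds its dTAG-S30 level, favours genes that are lower there, so this direction is no result. By rank (Spearman) correlation, 2 of these 5 stayed among the 5 most alike. PTGER4 had r = 0.981 and rho = 0.685 with PTGS2 and was rank 110 of 13092 by r.

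**Figure D5:**
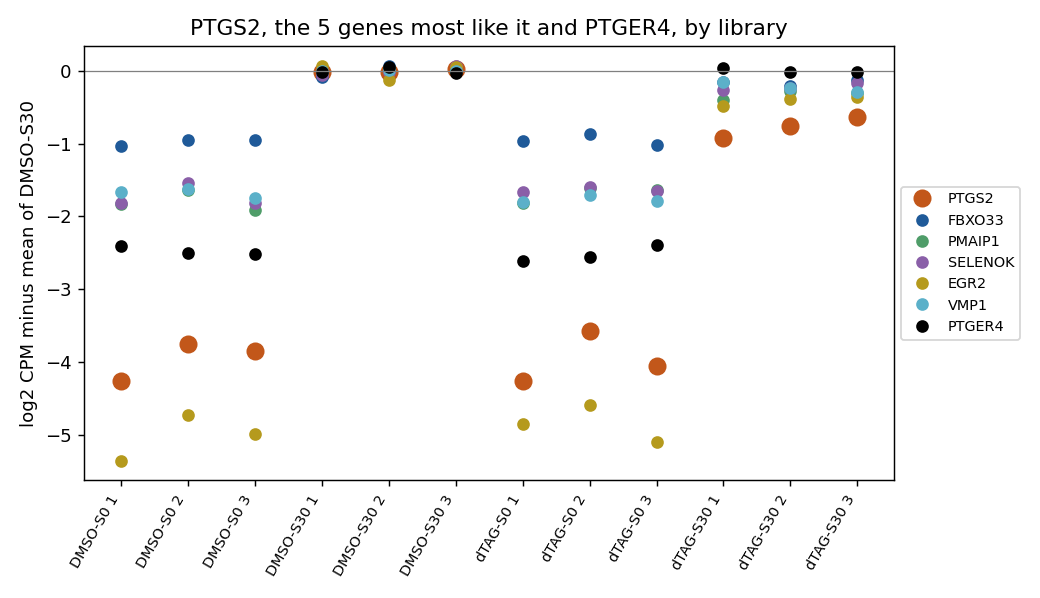
Log2 CPM of PTGS2, of the 5 genes most like it and of PTGER4 in each of the 12 libraries (x axis), minus the gene's mean in DMSO-S30 (y axis, log2). All 7 genes sat near 0 in DMSO-S30 and far below it without serum, and in dTAG-S30 PTGS2 lay lowest while PTGER4 stayed at its DMSO-S30 level within the spread of the libraries.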

How the data were processed

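Raw gene counts were the deposited values. Per the labels and the study's methods, ribosome-depleted total RNA with ERCC spike-ins was sequenced and the authors trimmed reads (Trim Galore 0.6.4, checked with FastQC 0.11.8), aligned them to hg38 with STAR and counted them over whole genes with featureCounts (Subread 1.6.3). Counting options for strand and multimapped reads are not given in the sources used here. The table holds 19901 genes and 92 ERCC RNAs in 12 columns, 1 per library, and 0 per-sample columns were left unused. Start coordinates were counted from 0 and were raised by 1.

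Counts were fitted with edgeR 4.0.16 in R 4.3.3 (quasi-likelihood test, upper-quartile scaling, 1 factor of unwanted variation from the ERCC counts, all 12 libraries, at least 10 counts in at least 6 libraries, Benjamini-Hochberg over 13093 genes, threshold 0.05). The step was tested on simulated counts. The members and lists were chosen with earlier results of these data known. Named were all 6 members, TRIM28, up to 3 called genes per list and comparison by absolute fold change, and the 5 genes most like PTGS2. PTGS1, the other EP receptors, TTC33, COL1A1 and further contrasts of genes so named were chosen after their values were seen. The libraries are described as biological replicates in the methods, and the labels name no separate cultures, so p-values measure the spread between these libraries. Labels of the starved libraries read serum 0 and 30 together and were taken as no serum, as their titles differ from those of the 30 min libraries. Poisson intervals cover counting error only. Overlaps and exon lengths came from GENCODE v44. Alternatives were TMM scaling, spike-in library sizes, 0 or 2 spike-in factors, a likelihood ratio test, DESeq2 1.42.0, no count filter, only the 6 libraries compared, a replicate block and each library left out in turn.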

Additional observations from a re-analysis of the deposited data

How the results depend on the processing

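PTGS2 kept its direction in both serum comparisons and in dTAG with serum under every alternative, with 4.09 to 4.22, 3.33 to 3.40 and -0.81 to -0.73 (log2). Leaving out each library in turn gave 4.01 to 4.29, 3.22 to 3.58, -0.85 to -0.69, and -0.94 to -0.56 for the interaction, its smallest size coming without dTAG-S0 replicate 2. PTGER4 kept its serum calls throughout (2.48 to 2.61). The uncalled dTAG effect on PTGS2 without serum (0.01) became -0.0025 with no spike-in factor, -0.028 with 2 factors and -0.13 in the 6 libraries compared, and ran from -0.24 to 0.14 with 1 library left out, being negative without DMSO-S0 replicate 1, dTAG-S0 replicate 2, dTAG-S30 replicate 1 or dTAG-S30 replicate 3. Members other than PTGS2 called for serum in dTAG-treated cells numbered 2 instead of 1 in the 6 libraries compared, and 1 to 2 with a library left out, the second being PTGES3.

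Uncalled values close to 0 turned their sign. For serum in DMSO-treated cells PTGES2 became -0.027 in the 6 libraries compared, and PTGES3 0.040 (TMM), 0.018 (spike-in library sizes) and 0.030 (DESeq2). For serum in dTAG-treated cells PTGES became 0.044 (TMM), 0.015 (spike-in library sizes), 0.094 (2 factors), 0.036 (DESeq2) and 0.0051 (no count filter). PTGER4 became 0.032 for dTAG without serum and 6.9e-05 with serum in the 6 libraries compared, and 0.0038 with spike-in library sizes. The interaction of PTGES became 0.040 with 2 factors. With a library left out, PTGES ranged from -0.034 to 0.12 (serum, DMSO), -0.062 to 0.16 (serum, dTAG), -0.12 to 0.0098 (dTAG, no serum), -0.15 to 0.11 (dTAG, serum) and -0.13 to 0.18 (interaction). PTGES2 ranged from -0.0081 to 0.13, -0.022 to 0.13 and -0.066 to 0.12 (serum in DMSO, serum in dTAG, interaction). PTGES3 ranged from -0.031 to 0.070 (dTAG, serum), and PTGER4 from -0.11 to 0.00024 (dTAG, no serum), -0.052 to 0.017 (dTAG, serum) and -0.031 to 0.11 (interaction). The cause of these changes was not tested.

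Replicate numbers did not pair the libraries: deviations from the group means correlated from -0.15 to 0.14 between same-numbered libraries, 1 of 18 pairs over 0.1. With the replicate block the PTGS2 values were 4.09, 3.37, -0.73 and -0.72 (serum in DMSO, serum in dTAG, dTAG with serum, interaction) and -0.016 for dTAG without serum, and the block changed no call of a member. It moved the genes called for dTAG with serum from 164 to 181.

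Counts of genes called moved by more than 1.5 times with spike-in library sizes (1766 and 1646 for serum, 76 and 66 for dTAG), the likelihood ratio test (310 and 277 for dTAG), no count filter (300 and 282) and only the 6 libraries compared (317 with serum), as against 3573, 3342, 193 and 164. With a library left out they ran from 111 to 313 for dTAG without serum (lowest without dTAG-S0 replicate 3, highest without dTAG-S30 replicate 3) and from 99 to 267 with serum (lowest without DMSO-S30 replicate 2, highest without DMSO-S0 replicate 1). The interaction called 3 to 24 genes against 6. HPGD, fitted without a count filter, had effects of -0.30 to 0.02 with SE 0.53 to 0.80. Depth limits PTGS2 without serum and HPGD in every group.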
